A study of Caenorhabditis elegans with 8 samples.

Results

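AMP-activated protein kinase (AMPK) is the energy sensor of the cell, and in Caenorhabditis elegans its subunits are encoded by 9 genes: the catalytic alpha subunit genes aak-1 and aak-2, the beta subunit genes aakb-1 and aakb-2, and the gamma subunit genes aakg-1 to aakg-5. These 9 genes and par-4, the worm gene for the upstream kinase LKB1, were taken by gene name from the deposited expression table. All 10 were present among the 46904 genes listed, and all 10 passed the filter on low expression that left 15365 genes for testing. AMPK works as a complex of 1 alpha, 1 beta and 1 gamma subunit. The alpha subunit carries the kinase domain, the beta subunit holds the complex together, and the gamma subunit binds AMP, ADP and ATP. LKB1, bound to its partners STRAD and MO25, activates the alpha subunit by phosphorylation. In the dauer, the arrested larva that does not feed, AMPK and PAR-4 are known to restrain germline divisions and to slow the use of stored fat.

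The 8 libraries, made from polyadenylated RNA of whole hermaphrodites, fall into 4 groups of n = 2. Every group was mutant for daf-2, which encodes the insulin/IGF receptor, and for hzl-1 (C44H9.4), with alleles not given in the sources used here. The groups labelled daf-2; hzl-1, written daf-2 hzl-1 here, had no further mutation named, while those labelled daf-2; aak(0); hzl-1, written aak(0), also lacked aak-1 and aak-2 function. For each genotype dauers were collected after 96 h and post-dauers after 192 h. The growth protocol names 25 °C for all animals, whereas the design text of the series places post-dauers after a shift to permissive temperature. Animals with functional hzl-1 or daf-2 were not analysed here, so every comparison is made within mutants of both. Nothing in the labels says that the numbered libraries of a group were grown as separate cultures, so p-values may measure technical spread.

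Depth lay between 13992157 and 26984881 reads, and rRNA genes took 0.548% to 12.4% of them. Spearman's rho between the libraries of a group was 0.939 (daf-2 hzl-1 dauers), 0.977 (their post-dauers), 0.979 (aak(0) dauers) and 0.935 (aak(0) post-dauers). In daf-2 hzl-1 dauers the libraries stood apart in dauer cuticle collagens, with col-2 at 11.12 FPKM in the first and 1117.85 FPKM in the second. Results that turn on a single library are given with and without it. Levels are in FPKM, a count of fragments divided by transcript length and by sequencing depth, which allows genes of different length to be compared. Differences are on the scale log2(FPKM + 1) with their standard error (SE) and a limma adjusted p, and a difference was called when that p was under 0.05. The same differences by edgeR on read counts, with TMM scaling between libraries, stand beside them. On FPKM the median of all genes was shifted by 0.34 between the daf-2 hzl-1 stages and by 0.41 between the dauers of both genotypes, against -0.01 and 0.05 by edgeR. Of all limma calls, 58.6% were higher in daf-2 hzl-1 post-dauers (48.4% by edgeR), and 87.6% were higher in dauers of aak(0) than in those of daf-2 hzl-1 (64.9% by edgeR, 57.5% after median ratio scaling of FPKM). The median interaction was log2 -0.34 on FPKM and -0.07 by edgeR. The 5 comparisons draw on the same 8 libraries and are not independent of each other.

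The catalytic subunit genes of daf-2 hzl-1 moved in opposite directions between the stages. Transcripts of aak-2 (WBGene00020142, X:16796087-16803357, build WBcel235), the catalytic gene known for its role in the long life of insulin receptor mutants, measured 35.56 and 43.56 FPKM in the dauer libraries and 20.20 and 18.39 FPKM in the post-dauer libraries. For aak-1 (WBGene00019801, III:8756995-8761101) the dauer libraries measured 3.10 and 3.19 FPKM and the post-dauer libraries 8.75 and 8.59 FPKM. In neither gene did the groups overlap. The fall of aak-2 was log2 -0.99 ± 0.20 (limma adjusted p = 0.00410, edgeR log2 -1.35), and the rise of aak-1 was log2 1.22 ± 0.24 (limma adjusted p = 0.00366, edgeR log2 1.11). In aak(0), where the label names both genes as lost, their transcripts were still counted: aak-2 measured 37.94 and 49.15 FPKM in dauers and 9.85 and 9.40 FPKM in post-dauers. The fall of aak-2 there was log2 -2.06 ± 0.20 (limma adjusted p = 0.000405, edgeR log2 -2.12). For aak-1 the aak(0) dauers measured 14.71 and 9.99 FPKM and the post-dauers 7.16 and 7.72 FPKM, a difference that limma did not call (log2 -0.64 ± 0.24, adjusted p = 0.0593, edgeR log2 -0.66 at adjusted p = 0.0896). A gene-level value does not see a deletion inside a gene, so these levels check no label. Between 83 and 683 reads per library stand behind aak-1. Exons of aak-1 overlap those of sma-2 by 100 nt and exons of aak-2 overlap those of mec-4 by 78 nt, in both cases on the opposite strand. Whether the counting used strand is not given in the sources used here, so reads of the overlaps cannot be assigned.

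**Figure D1:**
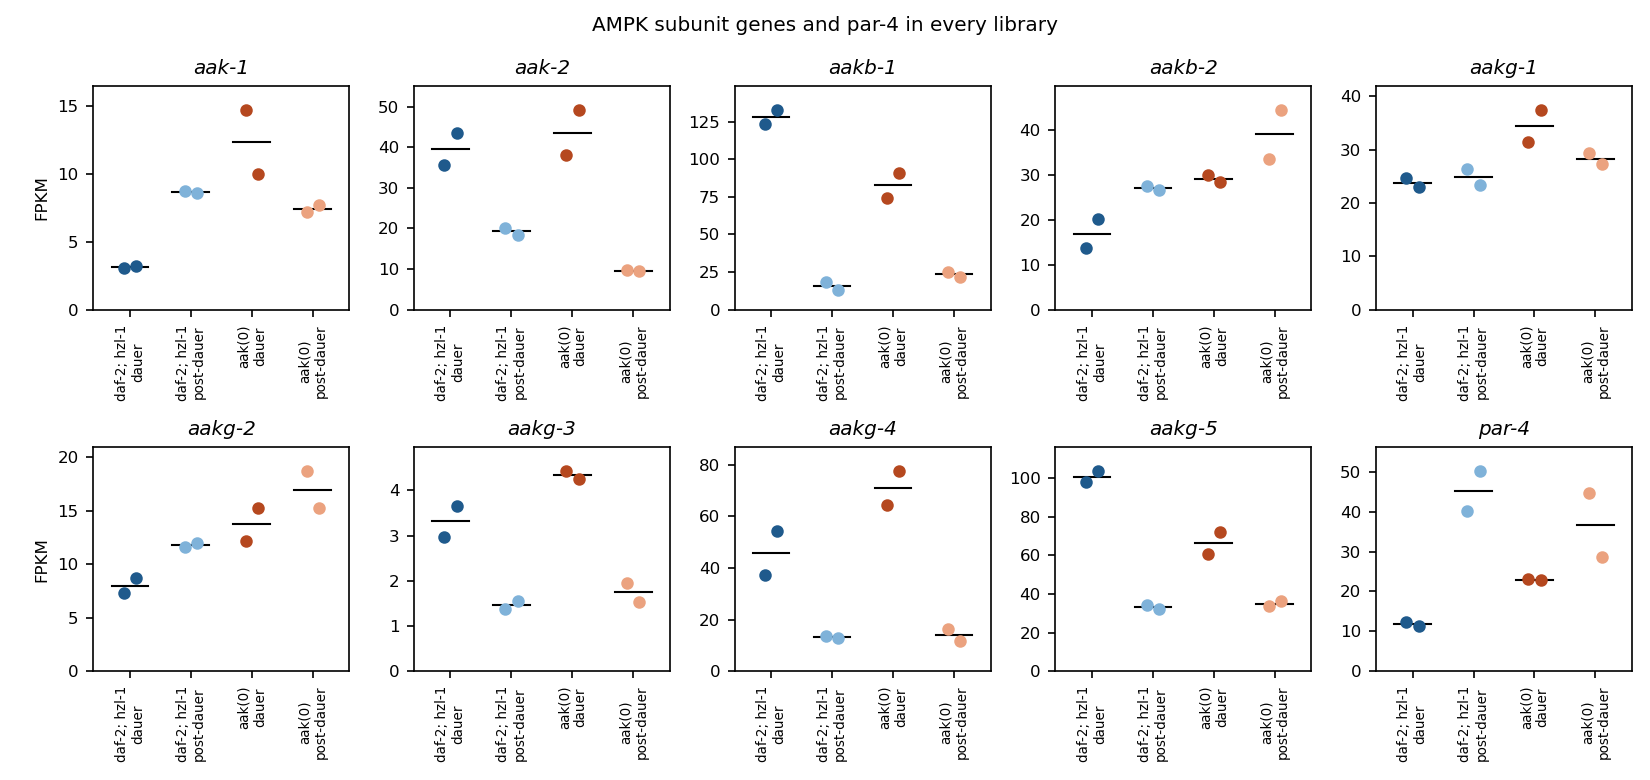
Each panel plots 1 gene, with FPKM on the vertical axis from 0 and the 4 groups along the horizontal axis; points are single libraries and lines are means of n = 2. Points of aakb-1, aakg-4 and aakg-5 are high in the dauer groups and low in the post-dauer groups, par-4 is lowest in daf-2 hzl-1 dauers, and aak-1 is lowest there as well at 3.10 and 3.19 FPKM.

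Because aak-2 fell and aak-1 rose, the catalytic transcripts of daf-2 hzl-1 animals changed in makeup. In the dauer libraries aak-2 supplied 92.0% and 93.2% of the summed alpha FPKM, and in the post-dauer libraries 69.8% and 68.2%. In aak(0) the share of aak-2 was 72.1% and 83.1% in dauers and 57.9% and 54.9% in post-dauers. Expressed as a ratio within a library, which no scaling between libraries can alter, aak-2 stood at 11.5 and 13.7 times aak-1 in daf-2 hzl-1 dauers and at 1.22 to 4.92 times in the other 6 libraries. The share did not overlap between any of the 4 groups. Both alpha genes are the ones named as lost in aak(0), and what their mutations do to read counts was not tested. Ratios, shares and sums of the alpha genes may therefore not be comparable between the genotypes. With 2 against 2 libraries a two-sided exact permutation test cannot give a p below 0.333, so these shares are a description. The sum of both alpha genes was 38.66 to 46.75 FPKM in dauers of daf-2 hzl-1 and 26.98 to 28.95 FPKM in their post-dauers. In aak(0) the same sum was 52.65 to 59.14 FPKM in dauers and 17.01 to 17.12 FPKM in post-dauers.

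Of the beta subunit genes, aakb-1 showed the widest range over the groups of any gene of the complex. Transcripts of aakb-1 (WBGene00010115, X:13755771-13759391) measured 123.49 and 132.71 FPKM in dauers of daf-2 hzl-1 and 18.07 and 13.36 FPKM in their post-dauers. In aak(0) the dauers measured 73.95 and 91.06 FPKM and the post-dauers 24.88 and 21.89 FPKM. All dauer libraries were thus above all post-dauer libraries, and within each stage the genotypes did not overlap, with aak(0) lower in dauers and higher in post-dauers. The fall from dauer to post-dauer was log2 -2.96 ± 0.20 in daf-2 hzl-1 animals (limma adjusted p = 4.57e-05, edgeR log2 -3.29) and log2 -1.77 ± 0.20 in aak(0) (limma adjusted p = 0.000683, edgeR log2 -1.80). The second beta gene, aakb-2 (WBGene00012928, III:11237149-11238252), measured 13.67 and 20.11 FPKM in dauers of daf-2 hzl-1 and 27.53 and 26.61 FPKM in post-dauers. In aak(0) it measured 29.92 and 28.32 FPKM in dauers and 33.57 and 44.42 FPKM in post-dauers. The daf-2 hzl-1 dauers were the low group for aakb-2. Its rise in daf-2 hzl-1 animals (log2 0.67 ± 0.23, limma adjusted p = 0.0371) was not called by edgeR (log2 0.37, adjusted p = 0.290). It was also lost without daf-2 hzl-1 dauer 1 (log2 0.41, adjusted p = 0.142), without daf-2 hzl-1 post-dauer 1 (adjusted p = 0.132) or 2 (adjusted p = 0.115), and without aak(0) dauer 1 (adjusted p = 0.0701) or 2 (adjusted p = 0.0698). Exons of aakb-2 share 109 nt on the same strand with Y47D3A.35, a noncoding gene listed at up to 36.42 FPKM, so reads of that stretch cannot be told apart. In aak(0) the stage difference of aakb-2 was not called (log2 0.40 ± 0.23, limma adjusted p = 0.191).

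The beta genes exchanged rank between the stages. In daf-2 hzl-1 dauers aakb-1 supplied 90.0% and 86.8% of the summed beta FPKM, against 39.6% and 33.4% in post-dauers. In aak(0) its share was 71.2% and 76.3% in dauers and 42.6% and 33.0% in post-dauers. The ratio of aakb-1 to aakb-2 was 9.03 and 6.60 in daf-2 hzl-1 dauers and 2.47 and 3.22 in aak(0) dauers, and it was below 1 in all 4 post-dauer libraries, between 0.493 and 0.741. The post-dauer groups overlapped in this ratio, and the dauer groups did not.

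**Figure D2:**
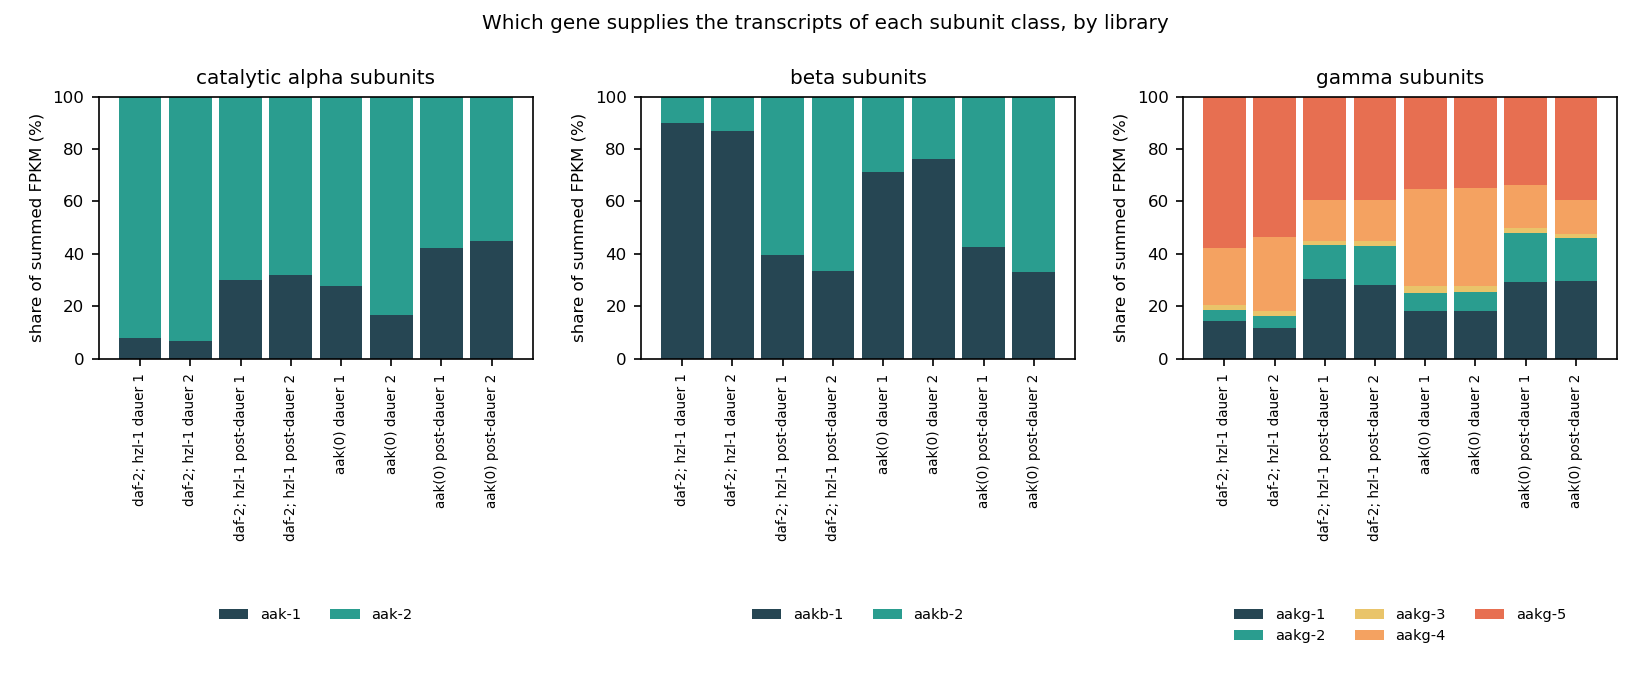
Stacked bars give, for each of the 8 libraries, the percent of the summed FPKM of a subunit class that each gene supplies, for the alpha, beta and gamma classes. The share of aakb-1 is above 70% in all 4 dauer libraries and below 43% in all 4 post-dauer libraries, and the aak-2 share is highest in daf-2 hzl-1 dauers, at 92.0% and 93.2%.

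Among the gamma subunit genes, aakg-4 and aakg-5 had the highest dauer levels and fell in both genotypes. Transcripts of aakg-5 (WBGene00011276, II:9971035-9975125) measured 98.08 and 103.59 FPKM in dauers of daf-2 hzl-1 and 34.26 and 32.45 FPKM in post-dauers. In aak(0) they measured 60.70 and 72.09 FPKM in dauers and 33.70 and 36.29 FPKM in post-dauers. The dauer groups differed from each other and from the post-dauers without overlap, while the post-dauer groups overlapped. The fall was log2 -1.57 ± 0.15 in daf-2 hzl-1 animals (limma adjusted p = 0.000173, edgeR log2 -1.96) and log2 -0.90 ± 0.15 in aak(0) (limma adjusted p = 0.00303, edgeR log2 -0.95). For aakg-4 (WBGene00020135, X:2314896-2319333) the daf-2 hzl-1 dauers measured 37.28 and 54.26 FPKM and the post-dauers 13.61 and 12.98 FPKM. The aak(0) dauers measured 64.22 and 77.41 FPKM and the aak(0) post-dauers 16.42 and 11.82 FPKM. Here aak(0) dauers were the high group, and again the post-dauers of both genotypes overlapped. The fall of aakg-4 was log2 -1.69 ± 0.25 in daf-2 hzl-1 animals (limma adjusted p = 0.00105, edgeR log2 -2.10) and log2 -2.26 ± 0.25 in aak(0) (limma adjusted p = 0.000633, edgeR log2 -2.27).

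The other gamma genes were lower or steadier. The least abundant was aakg-3 (WBGene00021527, X:2976457-2981008), at 2.98 and 3.66 FPKM in dauers of daf-2 hzl-1, 1.37 and 1.55 FPKM in their post-dauers, 4.42 and 4.26 FPKM in aak(0) dauers and 1.96 and 1.54 FPKM in aak(0) post-dauers. Only 29 to 152 reads per library stand behind these values. The fall of aakg-3 was log2 -0.81 ± 0.22 in daf-2 hzl-1 animals (limma adjusted p = 0.0160, edgeR log2 -1.63) and log2 -0.96 ± 0.22 in aak(0) (limma adjusted p = 0.0109, edgeR log2 -1.36), where the limma scale understates changes of such low genes. The limma call was lost in daf-2 hzl-1 without post-dauer library 1 (adjusted p = 0.0757) or 2 (adjusted p = 0.0547), and in aak(0) without dauer library 1 (adjusted p = 0.0625) or 2 (adjusted p = 0.0581). Transcripts of aakg-2 (WBGene00020633, X:16866069-16869031), the gamma gene whose activated form is known to extend worm lifespan, lay between 7.28 FPKM in a daf-2 hzl-1 dauer library and 18.68 FPKM in an aak(0) post-dauer library. Those of aakg-1 (WBGene00013732, III:12538664-12575401) lay between 22.91 and 37.41 FPKM, the narrowest range of the 10 genes relative to its level. Neither aakg-1 nor aakg-2 was called in a stage comparison. For aakg-1 the difference was log2 0.06 ± 0.17 (95% interval -0.35 to 0.46) in daf-2 hzl-1 and log2 -0.27 ± 0.17 (-0.68 to 0.13) in aak(0). In daf-2 hzl-1 the sign for aakg-1 turned with the scaling, to log2 -0.29 by edgeR and -0.22 after median ratio scaling. For aakg-2 the difference was log2 0.51 ± 0.21 (-0.00 to 1.02) and log2 0.29 ± 0.21 (-0.22 to 0.80).

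The makeup of the gamma transcripts differed most in the daf-2 hzl-1 dauers and in the aak(0) dauers, and in different genes. In daf-2 hzl-1 dauers aakg-5 supplied 57.6% and 53.6% of the summed gamma FPKM, against 33.7% to 39.5% in the other 6 libraries. In aak(0) dauers aakg-4 supplied 37.1% and 37.5%, compared with 21.9% and 28.1% in daf-2 hzl-1 dauers and 12.8% to 16.4% in the post-dauers. The share of aakg-1 was 11.9% to 18.2% in dauers and 28.3% to 30.2% in post-dauers, and that of aakg-2 was 4.27% to 7.39% in dauers and 13.3% to 18.7% in post-dauers. No post-dauer library overlapped a dauer library in either share. Summed over all 5 genes, gamma FPKM was 170.33 to 206.42 in the 4 dauer libraries and 82.21 to 100.11 in the 4 post-dauer libraries.

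The upstream kinase gene ran the other way. Transcripts of par-4 (WBGene00003919, V:18098676-18106868) measured 12.21 and 11.20 FPKM in dauers of daf-2 hzl-1 and 40.07 and 50.08 FPKM in post-dauers. In aak(0) they measured 23.02 and 22.77 FPKM in dauers and 44.67 and 28.52 FPKM in post-dauers. The daf-2 hzl-1 dauers were lowest, aak(0) dauers came next, and the post-dauers of both genotypes overlapped. The rise in daf-2 hzl-1 was log2 1.85 ± 0.24 (limma adjusted p = 0.000639, edgeR log2 1.53). In aak(0) limma did not call the difference (log2 0.62 ± 0.24, adjusted p = 0.0702), whereas edgeR did (log2 0.62, adjusted p = 0.0320). The limma value turned on aak(0) post-dauer library 2, without which it was log2 0.93 (adjusted p = 0.0135), and on library 1, without which it was log2 0.31 (adjusted p = 0.237).

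Counted over the 10 genes, limma called 3 higher (aak-1, aakb-2 and par-4) and 5 lower (aak-2, aakb-1, aakg-3, aakg-4 and aakg-5) in daf-2 hzl-1 post-dauers than in their dauers. Over all tested genes 67.3% were called, 39.4% higher and 27.8% lower, so that a call by itself was common. By edgeR, which called 68.5% of all genes (33.1% higher and 35.4% lower), 2 of the 10 were higher and 5 lower. In aak(0) limma called 0 higher and the same 5 lower, beside 52.9% of all genes (25.9% higher and 27% lower). At an unadjusted limma p under 0.05 the 7 genes of aak(0) that passed were these 5 with aak-1 and par-4, beside 59.0% of all genes. By edgeR 1 of the 10 was higher (par-4) and 5 were lower in aak(0), beside 54.8% of all genes (25.0% higher and 29.9% lower). The median log2 change over the 10 genes was -0.38 in daf-2 hzl-1, where that of all genes was 0.34, and -0.77 in aak(0), where that of all genes was 0.02. Relative to the shift of all genes, the rises in daf-2 hzl-1 were log2 0.89 for aak-1, 0.34 for aakb-2 and 1.52 for par-4, and the falls ranged from log2 -1.15 for aakg-3 to -3.30 for aakb-1. In the authors' deposited tables, daf-2 hzl-1 had 7 of the 10 genes at an adjusted p under 0.05, and aak(0) had 5. The share of all genes called in the authors' test is not reported here, so these counts do not set the 10 genes apart.

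**Figure D3:**
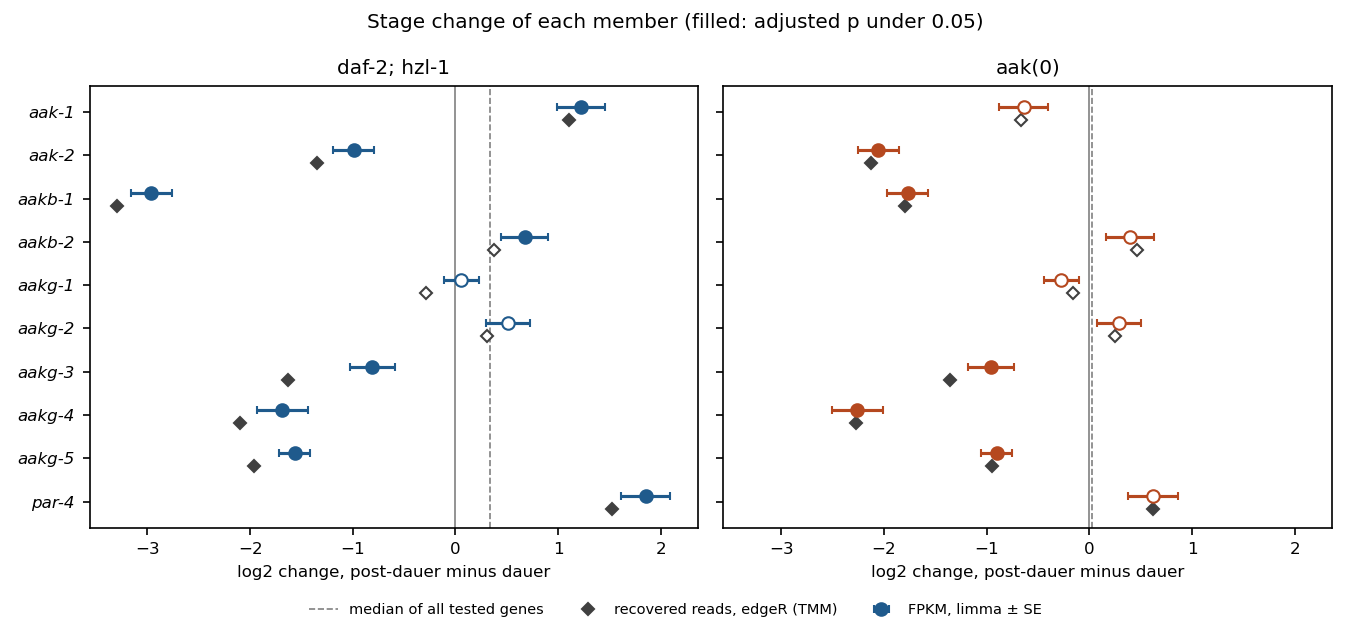
For each gene the horizontal axis gives the log2 change, post-dauer minus dauer, of daf-2 hzl-1 (left panel) and aak(0) (right panel), as limma estimates ± SE on FPKM (circles) and edgeR estimates on reads (diamonds), filled where the adjusted p was under 0.05; the dashed line is the median of all tested genes. The genes aak-2, aakb-1, aakg-3, aakg-4 and aakg-5 lie left of 0 with filled symbols in both panels, and par-4 lies right of 0 in both, at log2 1.85 and 0.62.

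Whole-animal RNA pools all tissues, and fewer cells of a type cannot be told apart from less RNA per cell. Summed FPKM of 8 neuron markers was 2149 to 2370 in daf-2 hzl-1 dauers and 275 to 320 in their post-dauers, and 1435 to 1698 and 427 to 447 in aak(0). All 8 neuron markers were called lower in post-dauers of daf-2 hzl-1 and 7 of 8 in aak(0) post-dauers. Summed FPKM of 8 oocyte markers was 41.00 to 45.22 in daf-2 hzl-1 dauers, 517 to 534 in aak(0) dauers, and 2331 to 2788 in the 4 post-dauer libraries. All 8 oocyte markers were called higher in the post-dauers of both genotypes, and all 8 were higher in dauers of aak(0) than in those of daf-2 hzl-1. For 8 germline markers the sum was 190 to 263 in daf-2 hzl-1 dauers, 380 to 393 in aak(0) dauers and 1251 to 1939 in post-dauers, and all 8 were higher in the post-dauers of both genotypes by limma (6 in daf-2 hzl-1 by edgeR). Between the dauers only 3 germline markers were higher by limma, and the sum moved mostly with cgh-1 (mean 44.8 against 113 FPKM) and gld-1 (15.4 against 79.5 FPKM), both named after their values were seen. No marker of these 3 lists was at 0 in any library. These sums moved with the stage in the same libraries as the subunit genes and par-4, and their part in the results was not tested.

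Between the dauers of both genotypes, aak-1 was the gene of the set with the largest difference. This gene is itself named as lost in aak(0), and the part of its mutation was not tested. It stood at 14.71 and 9.99 FPKM in aak(0) dauers against 3.10 and 3.19 FPKM in dauers of daf-2 hzl-1, a difference of log2 1.66 ± 0.24 (limma adjusted p = 0.00399, edgeR log2 1.54 at adjusted p = 0.00993). Limma also called aakb-2 (log2 0.77 ± 0.23, adjusted p = 0.0468), aakg-2 (log2 0.71 ± 0.21, adjusted p = 0.0487) and par-4 (log2 0.91 ± 0.24, adjusted p = 0.0330) higher in aak(0) dauers. By edgeR none of these 3 was called, with log2 0.38, 0.43 and 0.50 at adjusted p = 0.376, 0.203 and 0.115. In the other direction, aakg-5 was lower in aak(0) dauers (log2 -0.60 ± 0.15, limma adjusted p = 0.0273, edgeR log2 -1.04 at adjusted p = 0.0167). The lower level of aakb-1 in aak(0) dauers was not called by limma (log2 -0.64 ± 0.20, adjusted p = 0.0539) but was by edgeR (log2 -1.03, adjusted p = 0.0147). So 4 of the 10 genes were higher and 1 lower by limma, beside 29.1% of all genes (25.5% higher and 3.60% lower). By edgeR 1 was higher and 2 were lower, beside 22.8% of all genes (14.8% higher and 7.99% lower). Relative to the median of all genes on FPKM, which was itself shifted by log2 0.41, the difference of par-4 was log2 0.50, that of aak-1 log2 1.26 and that of aakg-5 log2 -1.01. For aak-2 the difference was log2 0.13 ± 0.20 on FPKM (95% interval -0.34 to 0.60) and turned to log2 -0.25 by edgeR, with overlapping libraries.

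The dauer comparison was sensitive to single libraries. The call for aak-1 held without any 1 of the 8 libraries. The calls of aakg-2 (adjusted p = 0.0529 to 0.267), aakg-5 (adjusted p = 0.0543 to 0.171) and par-4 (adjusted p = 0.0593 to 0.154) were lost without any 1 of the daf-2 hzl-1 libraries or of the aak(0) dauer libraries. That of aakb-2 was lost (adjusted p = 0.0881 to 0.202) without any of those 6 but daf-2 hzl-1 dauer 2, and without daf-2 hzl-1 dauer 1 its difference was log2 0.51. Without daf-2 hzl-1 dauer 2, aakg-4 was called higher in aak(0) dauers (log2 0.90, adjusted p = 0.0449), where the value with all libraries was log2 0.64 ± 0.25 (limma adjusted p = 0.0983). Without daf-2 hzl-1 dauer 1 it was log2 0.37 (adjusted p = 0.355). Over all genes the count of calls was 4464, and it fell to 1309 without aak(0) dauer 1 and to 1440 without aak(0) dauer 2. Markers of several tissues also differed between these dauer groups. By limma all 8 oocyte markers, 3 of 8 germline markers, 5 of 8 body wall muscle markers, 4 of 7 intestine markers and 4 of 8 epidermis markers were higher in aak(0) dauers, and 1 germline marker was lower. By edgeR the higher counts were 8, 1, 2, 2 and 2 in the same order, and 1 germline marker was lower. None of the 8 neuron markers was called by limma, and 2 were lower by edgeR. Over all genes 25.5% were higher and 3.60% lower by limma, and 14.8% and 7.99% by edgeR. Of these lists only that of oocyte markers was higher in full by both tests. The part of these markers in the dauer differences was not tested.

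In post-dauers limma called none of the 10 genes (0 of 10, beside 4.66% of all genes, 4.22% higher and 0.443% lower). Of the 10, 2 had an unadjusted limma p under 0.05, aak-2 and aakb-1, beside 20.5% of all genes. That was no larger share than over all genes. By edgeR 1 was called, beside 4.17% of all genes (3.38% higher and 0.786% lower), and by DESeq2 also 1. That gene was aak-2, itself named as lost in aak(0), and the part of its mutation was not tested. It measured 9.85 and 9.40 FPKM in aak(0) post-dauers against 20.20 and 18.39 FPKM in daf-2 hzl-1 post-dauers. The difference was log2 -0.93 ± 0.20 with a limma adjusted p = 0.0514 and log2 -1.02 with an edgeR adjusted p = 0.0414. Without 1 library the aak-2 difference was log2 -0.997 to -0.868, and limma did not call it in most of these fits. Each of them leaves 1 library in a group. Of 8 alternatives in processing that left out no single library, 4 called it and 4 did not. Of 7 dauer-stage markers 2 were also lower in aak(0) post-dauers by limma and by edgeR, hsp-12.6 (mean 163 against 20.3 FPKM) and scl-11 (19.4 against 2.59 FPKM), and of 8 epidermis markers 2 were higher, and their part in the aak-2 difference was not tested. The aak(0) post-dauer libraries stood farthest apart of all groups, with 15.7% of genes over 2-fold apart. Without library 1 of that group the calls over all genes turned from 648 higher and 68 lower to 707 higher and 1073 lower. For aakb-1 the difference was log2 0.56 ± 0.20 (limma adjusted p = 0.184), with aak(0) above daf-2 hzl-1 in both libraries. The remaining 8 genes had differences between log2 -0.32 for par-4 and log2 0.50 for aakb-2. Their 95% intervals reached -0.90 at the low end, for par-4, and 1.05 at the high end, for aakb-2. Differences of up to such a size were therefore not excluded with these libraries.

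**Figure D4:**
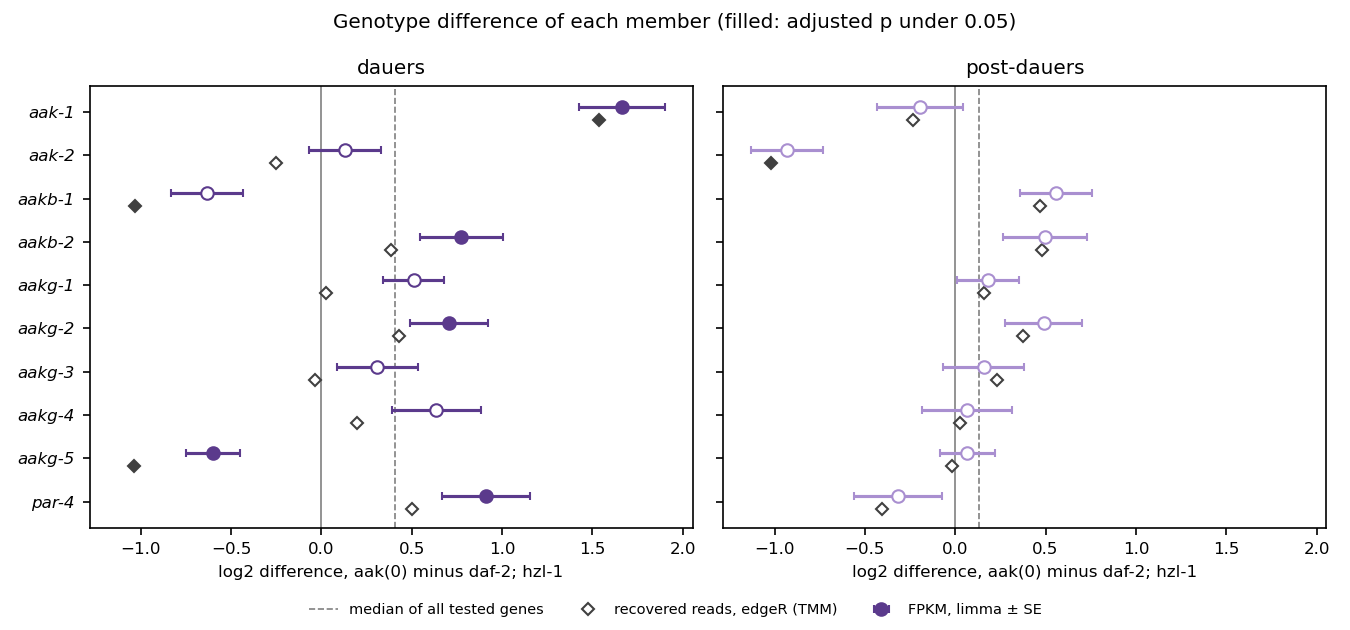
The horizontal axis gives the log2 difference aak(0) minus daf-2 hzl-1 for each gene in dauers (left panel) and post-dauers (right panel), as limma estimates ± SE (circles) and edgeR estimates (diamonds), filled where the adjusted p was under 0.05; the dashed line is the median of all tested genes. In dauers aak-1 lies farthest right, at log2 1.66, and in post-dauers aak-2 lies farthest left, at log2 -0.93.

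Whether a gene's stage change differed between the genotypes was tested as an interaction, the stage change in aak(0) minus that in daf-2 hzl-1. Limma called 2 of the 10 genes, 1 in each direction, beside 11.3% of all genes (3.54% higher and 7.80% lower). For aak-1 the interaction was log2 -1.86 ± 0.34 (limma adjusted p = 0.0196, edgeR log2 -1.77 at adjusted p = 0.0310), the rise in daf-2 hzl-1 being set against the uncalled decrease in aak(0). For aakb-1 it was log2 1.19 ± 0.28 (limma adjusted p = 0.0429, edgeR log2 1.50 at adjusted p = 0.0213), the fall in daf-2 hzl-1 being the larger. By edgeR the same 2 genes were called, beside 13% of all genes (5.23% higher and 7.79% lower). Relative to the shift of all genes these interactions were log2 -1.53 for aak-1 and 1.53 for aakb-1. The aak-1 call was lost without daf-2 hzl-1 post-dauer 1 (adjusted p = 0.0896) or 2 (adjusted p = 0.0825) and without aak(0) dauer 1 (adjusted p = 0.101) or 2 (adjusted p = 0.0538). That of aakb-1 was lost without any 1 of the 8 libraries (adjusted p = 0.0519 to 0.173). The interactions of aak-2 (log2 -1.06 ± 0.28, limma adjusted p = 0.0579), par-4 (log2 -1.23 ± 0.34, adjusted p = 0.0669) and aakg-5 (log2 0.67 ± 0.21, adjusted p = 0.0919) were not called. That of aak-2 was called without daf-2 hzl-1 dauer 2 (log2 -1.21, adjusted p = 0.0420), and that of par-4 without aak(0) post-dauer 1 (log2 -1.55, adjusted p = 0.0165). By limma all 8 oocyte markers, 3 of 8 germline, 2 of 8 body wall muscle, 3 of 7 intestine, 2 of 8 epidermis and 1 of 7 dauer-stage markers had a lower stage change in aak(0), and 0 of 8 neuron markers were called. Their part in these interactions was not tested, nor was that of the aak-1 and aak-2 mutations of aak(0).

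The partners of PAR-4 and the other kinases upstream and beside AMPK were read from lists of the pathway. Of 5 genes, the STRAD gene strd-1, the MO25 genes mop-25.1, mop-25.2 and mop-25.3, and ckk-1 for a calcium/calmodulin-dependent kinase kinase, 3 were higher and 1 was lower in post-dauers of daf-2 hzl-1, and 2 were higher and 2 lower in those of aak(0). Over all genes 39.4% were higher and 27.8% lower in daf-2 hzl-1, and 25.9% and 27% in aak(0), so that a call was common among all genes as well. Transcripts of strd-1 measured 13.89 and 16.60 FPKM in dauers of daf-2 hzl-1, 33.41 and 30.40 FPKM in their post-dauers, 33.04 and 28.70 FPKM in aak(0) dauers and 37.38 and 39.61 FPKM in aak(0) post-dauers. As with par-4, the daf-2 hzl-1 dauers were the low group. The rise of strd-1 in daf-2 hzl-1 was log2 1.02 ± 0.17 (limma adjusted p = 0.00191, edgeR log2 0.66), and its higher level in aak(0) dauers was called by limma (log2 0.97 ± 0.17, adjusted p = 0.00860) and not by edgeR (log2 0.53, adjusted p = 0.143). That dauer difference was lost by limma without aak(0) dauer 1 (adjusted p = 0.0793). The ratio of par-4 to strd-1 within a library was 0.675 to 0.879 in the 4 dauer libraries and 0.720 to 1.65 in the post-dauer libraries.

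The MO25 genes did not move together. In daf-2 hzl-1 mop-25.2 rose by log2 1.27 ± 0.19 (limma adjusted p = 0.00116) and mop-25.3 by log2 1.72 ± 0.25 (limma adjusted p = 0.00103), and in aak(0) by log2 0.70 ± 0.19 (adjusted p = 0.0206) and log2 0.95 ± 0.25 (adjusted p = 0.0183). In contrast mop-25.1 fell in aak(0) (log2 -0.69 ± 0.17, limma adjusted p = 0.0147), while in daf-2 hzl-1 it was called by edgeR (log2 -0.65, adjusted p = 0.0226) and not by limma (log2 -0.35 ± 0.17, adjusted p = 0.114). Without aak(0) dauer 1 or 2 none of the 3 aak(0) calls held by limma, and those of mop-25.2 and mop-25.3 were also lost without aak(0) post-dauer 1 (adjusted p up to 0.105 over these libraries). The kinase kinase gene ckk-1 measured 14.29 and 13.32 FPKM in dauers of daf-2 hzl-1, 2.19 and 3.09 FPKM in their post-dauers, 13.15 and 12.87 FPKM in aak(0) dauers and 2.62 and 2.21 FPKM in aak(0) post-dauers. Its fall was log2 -2.03 ± 0.22 and log2 -2.04 ± 0.22 (limma adjusted p = 0.000302 and 0.000630), opposite in direction to par-4.

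Of 4 kinases related to AMPK that LKB1 is known to activate in mammals, 3 fell in each genotype (kin-29, sad-1 and unc-82, the last named after its values were seen) and 0 rose, beside 27.8% and 27% of all genes lower in daf-2 hzl-1 and aak(0). The gene kin-29, for a salt-inducible kinase of sensory neurons, fell in daf-2 hzl-1 (log2 -1.76 ± 0.22) and in aak(0) (log2 -1.24 ± 0.22, limma adjusted p = 0.000497 and 0.00374). The neuronal kinase gene sad-1 fell likewise (log2 -2.7 ± 0.26 and -2.06 ± 0.26, limma adjusted p = 0.000176 and 0.00105). For the polarity kinase gene par-1 the difference was log2 -0.29 ± 0.26 and log2 -0.56 ± 0.26 and was not called (limma adjusted p = 0.35 and 0.117), except in aak(0) without post-dauer library 1 (adjusted p = 0.0167). Between dauers, kin-29 (log2 -0.77, adjusted p = 0.0205) and sad-1 (log2 -0.93, adjusted p = 0.0346) were lower in aak(0) by edgeR, and none of the 4 was called by limma. Neuron markers fell in the same comparisons, as given above, and their part in the fall of sad-1 and kin-29 was not tested.

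Genes for substrates and effectors of AMPK split evenly in daf-2 hzl-1, where 7 of 20 rose, 7 fell and 6 were not called; by edgeR 4 rose and 7 fell. Over all genes 67.3% were called there, close to the 14 of 20. That count was smaller without any 1 of the daf-2 hzl-1 libraries or of the aak(0) dauer libraries, and so was the count over all genes. Both counts were larger without either aak(0) post-dauer library. Each of these fits leaves 1 library in a group. In aak(0) 2 rose and 6 fell, and 12 were not called, beside 52.9% of all genes called. That count of 8 was smaller without either aak(0) dauer or either daf-2 hzl-1 post-dauer library, as was the count over all genes. Without either daf-2 hzl-1 dauer library it was smaller as well, though the count over all genes was larger. Without either aak(0) post-dauer library it was larger, while the count over all genes hardly changed. DESeq2 gave 5, beside 8983 of all genes called. The median log2 change over the 20 genes was 0.25 in daf-2 hzl-1 and -0.09 in aak(0), beside 0.34 and 0.02 over all genes. The gene pod-2 encodes acetyl-CoA carboxylase, the enzyme that commits carbon to fatty acid synthesis and a known AMPK target. Its transcripts measured 19.72 and 16.16 FPKM in dauers of daf-2 hzl-1, 74.77 and 62.27 FPKM in their post-dauers, 31.73 and 36.14 FPKM in aak(0) dauers and 44.63 and 37.12 FPKM in aak(0) post-dauers. Thus pod-2 rose in daf-2 hzl-1 animals (log2 1.88 ± 0.19, limma adjusted p = 0.000221), and in aak(0) the difference was log2 0.26 ± 0.19 (adjusted p = 0.294). The interaction of pod-2 was called (log2 -1.62 ± 0.27, limma adjusted p = 0.0155, edgeR log2 -1.38 at adjusted p = 0.0348), and by limma it was lost without either daf-2 hzl-1 post-dauer library or either aak(0) dauer library (adjusted p up to 0.0860). The other interaction called in the list was that of gsy-1, for glycogen synthase, a gene named after its values were seen (log2 -1.26 ± 0.24, limma adjusted p = 0.0219, edgeR adjusted p = 0.124). It too was lost by limma without either daf-2 hzl-1 post-dauer library or either aak(0) dauer library (adjusted p up to 0.107).

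Transcripts of atgl-1, for the fat-mobilising triglyceride lipase that AMPK is known to phosphorylate in dauers, rose in daf-2 hzl-1 by limma (log2 0.64 ± 0.17, adjusted p = 0.0151) and not by edgeR (log2 0.33, adjusted p = 0.255). The limma call was lost without daf-2 hzl-1 post-dauer 1 (adjusted p = 0.0907). In aak(0) the stage difference of atgl-1 was log2 0.13 ± 0.17 (adjusted p = 0.568). The gene crtc-1, for the CREB coactivator through which AMPK is known to act on lifespan, fell in both genotypes, with log2 -1.16 ± 0.19 in daf-2 hzl-1 animals (limma adjusted p = 0.00155) and log2 -0.83 ± 0.19 in aak(0) (adjusted p = 0.00983, lost without aak(0) dauer 1 or 2 at adjusted p up to 0.0767). The autophagy kinase gene unc-51 fell likewise (log2 -1.68 ± 0.20 and -1.05 ± 0.20, limma adjusted p = 0.000406 and 0.00488). Between dauers, 3 of the 20 genes were higher in aak(0) (atgl-1, gsy-1 and pod-2) and 1 was lower (daf-16, the FOXO gene, named after its values were seen). By edgeR the 3 higher calls were absent and daf-16 was still called lower (log2 -1.36, adjusted p = 0.00597). The limma calls of atgl-1, gsy-1 and pod-2 were lost without aak(0) dauer 1 or 2, and that of daf-16 was lost there and without daf-2 hzl-1 dauer 1 (adjusted p up to 0.116 over these 4 genes). These counts stand beside 25.5% of all genes higher and 3.60% lower by limma, so that 3 of 20 higher was no larger share than over all genes. Between post-dauers none of the 29 pathway genes was called by limma, beside 4.66% of all genes, or by edgeR. The differences of daf-15, hmgr-1, let-363 and set-2, named after their values were seen, turned on single aak(0) post-dauer libraries. They were log2 -0.91 to -0.50 with all libraries, -1.98 to -1.08 without aak(0) post-dauer 1 and -0.17 to 0.35 without aak(0) post-dauer 2. With no filter edgeR called 2 of the 20 substrate and effector genes lower, beside 643 of all genes. DESeq2 called 1 lower, beside 323 of all genes.

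**Figure D5:**
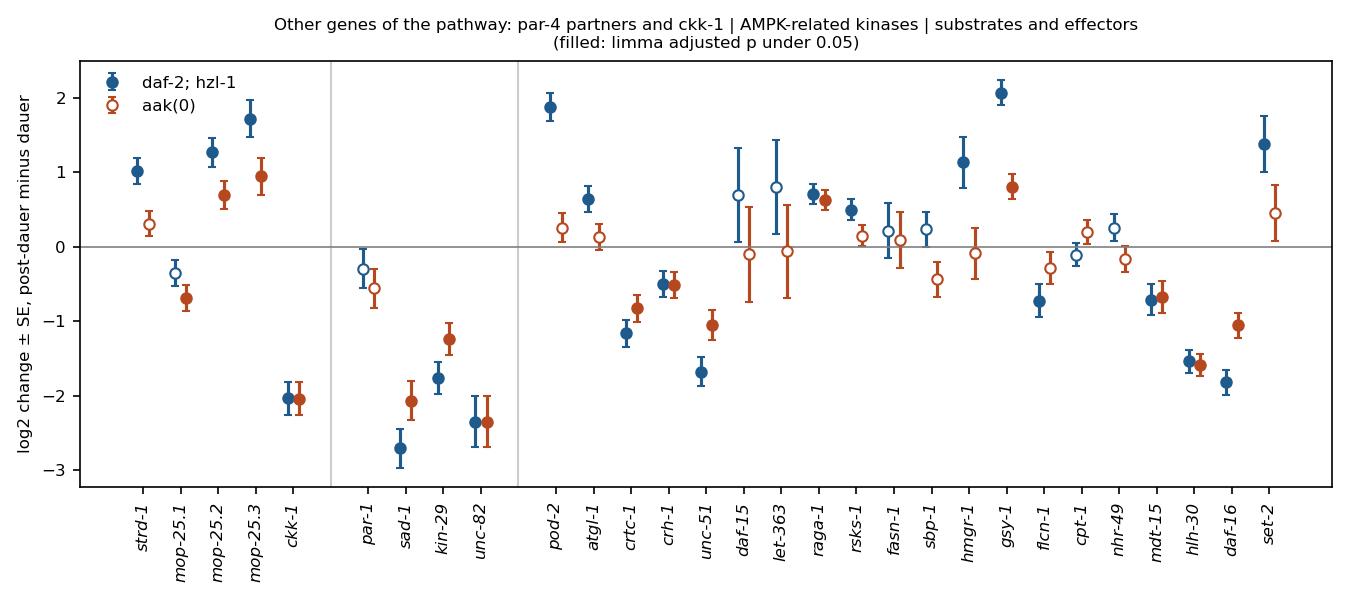
The vertical axis gives the log2 change ± SE from dauer to post-dauer (limma on FPKM) for the 29 other genes of the pathway, grouped as partners of PAR-4 and ckk-1, kinases related to AMPK, and substrates and effectors; blue is daf-2 hzl-1, rust is aak(0), and filled points had an adjusted p under 0.05. The kinases kin-29, sad-1 and unc-82 lie below 0 in both genotypes, and pod-2 lies at log2 1.88 in daf-2 hzl-1 and 0.26 in aak(0).

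Genes with a pattern most like that of aak-1, aak-2 and par-4 were looked up among 5489 named protein-coding genes, by Pearson's r of log2(FPKM + 1) over the 8 libraries. Only tested genes whose group means spanned at least 1 on this scale were candidates. These r values describe libraries that share stage and genotype, and no p is given. For aak-1 the nearest genes were the collagen gene col-90 (r = 0.959), the P-glycoprotein gene pgp-1 (r = 0.955) and the collagen gene col-10 (r = 0.945). Levels of pgp-1 were low, with group means of 0.125 to 1.99 FPKM, and col-90 had a mean of 0.03 FPKM in daf-2 hzl-1 dauers. Like aak-1, col-10 was lowest in daf-2 hzl-1 dauers, with a mean of 13.3 FPKM, and highest in aak(0) dauers, with 255 FPKM. For aak-2 they were the transthyretin-related gene ttr-19 (r = 0.990), the saposin-like gene spp-11 (r = 0.989) and the glucuronosyltransferase gene ugt-11 (r = 0.982). In aak(0) ttr-19 went from a mean of 224 FPKM in dauers to 0.585 FPKM in post-dauers, a larger fall than that of aak-2. For par-4 they were the F-box gene fbxa-215 (r = 0.997), the COP9 signalosome gene csn-4 (r = 0.995) and hpo-9 (r = 0.995). Mean csn-4 levels were 20.3 and 50.1 FPKM in the dauers and post-dauers of daf-2 hzl-1 and 30.2 and 41.0 FPKM in those of aak(0).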

How the data were processed

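The authors deposited FPKM of 46904 genes in 8 libraries and, per genotype, a table of counts divided by size factors (signal), with log2 fold changes and p-values of their DESeq2 test, per the file headers. Those tables set dauer over post-dauer, and their standard errors, SDs and test statistics (score values), also deposited by the authors, were not used here. Trimmomatic 0.35, STAR 2.7.1a, RSEM, DESeq2 1.30.1 and build WBcel235 are named per the submitters' processing notes, without order or role. Every deposited signal value was a whole multiple of 1 read (100% of values, tolerance 1e-06), so whole reads were recovered.

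The 15365 genes whose mean FPKM reached 1 were fitted on log2(FPKM + 1) by limma 3.58.1 (trend) in R 4.3.3, all 8 libraries together with a mean per group (4 residual and 2.69 prior degrees of freedom), and p-values were adjusted by Benjamini-Hochberg over all genes. Alternatives were edgeR 4.0.16 quasi-likelihood with TMM on the reads (17050 genes), DESeq2 1.42.0 and those named under the processing. Values are given for all 10 genes, for 12 pathway genes named by rule, and for the 3 genes most like aak-1, aak-2 and par-4. The members and lists were chosen with earlier results of these data known. Muscle, intestine, epidermis and dauer-stage markers were also tested, with 1 listed intestine gene (opt-2) unmatched. In daf-2 hzl-1 post-dauers limma called 2 of 8 muscle markers higher and 2 lower, 4 of 7 intestine markers higher and 2 lower, 3 of 8 epidermis markers higher and 3 lower, and 6 of 7 dauer-stage markers lower. In aak(0) post-dauers it called 2 muscle markers higher and 4 lower, 4 intestine markers higher and 2 lower, 1 epidermis marker higher and 1 lower, and 7 dauer-stage markers lower. Gene positions are those deposited, and exon overlaps come from annotation release 115. In that release the start or end differs from the deposited one for all of the 10 genes but aakg-1 and aakg-5. Protein and promoter sequences were not used here.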

Additional observations from a re-analysis of the deposited data

Results flagged for a closer look

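For 2 of the 10 genes the stage change differed between the genotypes by the interaction test, beside 11.3% of all genes called. Of these, aak-1 is itself named as lost in aak(0), and the part of its mutation was not tested. For aak-1 the stage change in aak(0) minus that in daf-2 hzl-1 was log2 -1.86 ± 0.34 (limma adjusted p = 0.0196): both daf-2 hzl-1 post-dauer libraries were above both dauer libraries, and both aak(0) post-dauer libraries were below both dauer libraries. For aakb-1 it was log2 1.19 ± 0.28 (limma adjusted p = 0.0429), with all post-dauer libraries below all dauer libraries in both genotypes and a smaller fall in aak(0). By limma the aak-1 call was lost without any of 4 of the 8 libraries (both daf-2 hzl-1 post-dauers and both aak(0) dauers, adjusted p = 0.0538 to 0.101), and the aakb-1 call was lost without any 1 of the 8 (adjusted p = 0.0519 to 0.173).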

How the results depend on the processing

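Of 20 changes called by limma among the 10 genes, 11 were called under every alternative: aak-1 between the daf-2 hzl-1 stages and between the dauers, par-4 between the daf-2 hzl-1 stages, and aak-2, aakb-1, aakg-4 and aakg-5 in both stage comparisons. Over 790 member values under alternatives, 664 kept direction and call, 71 lost the call, 17 gained it and 38 turned sign, all 38 of them uncalled with all libraries and under the alternative. In dauers the count called of 5 became 3 with no filter, with median ratio scaling, by edgeR with or without its filter and by DESeq2, 2 in a fit of only both dauer groups, and 1 to 5 without 1 library. In post-dauers 0 became 1 (aak-2) with median ratio scaling, by edgeR with or without its filter and by DESeq2, and 0 to 1 without 1 library. For the interaction 2 became 1 with no filter and 0 to 2 without 1 library. The stage counts were 6 to 8 in daf-2 hzl-1 and 4 to 6 in aak(0) without 1 library. The cause of these moves was not tested.

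Sign turned as follows, in the order median ratio scaling, edgeR, edgeR with no filter and DESeq2. For aak-2 between dauers the values were log2 -0.36, -0.25, -0.26 and -0.33, with -0.052 to 0.31 without 1 library. For aakg-3 between dauers they were -0.088, -0.038, -0.054 and -0.12, and for aakg-1 there DESeq2 gave -0.061. For aakg-1 between the daf-2 hzl-1 stages they were -0.22, -0.29, -0.30 and -0.17, with -0.030 to 0.14 without 1 library, and between the aak(0) stages DESeq2 gave 0.0014. For aakg-5 between post-dauers they were -0.059, -0.017, -0.074 and -0.069. For aakg-4 there median ratio scaling gave -0.058, edgeR with no filter -0.010 and DESeq2 -0.022, with -0.16 to 0.29 without 1 library. For the interaction they were 0.078, 0.095, 0.043 and 0.12 for aakb-2, 0.034, 0.13, 0.10 and 0.17 for aakg-1, and 0.16, 0.27, 0.25 and 0.30 for aakg-3, and median ratio scaling gave 0.12 for aakg-2.

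Over all genes the dauer calls numbered 4464 (1309 to 5350 without 1 library). The post-dauer calls numbered 716, against 1905 by edgeR with no filter, 1080 by DESeq2, 147 in a fit of only both post-dauer groups and 95 to 1780 without 1 library. The interaction calls numbered 1743, against 3460 by edgeR with no filter and 352 to 3947 without 1 library, and 31.2% of them were higher, 52.3% after median ratio scaling. The aak(0) stage calls numbered 8130 and 5004 to 8742 without 1 library. With the replicate number as a block, the members called were 8, 5, 2, 0 and 1 (both stages, dauers, post-dauers, interaction), and all genes called 9864, 7475, 3531, 367 and 1044. The labels do not say that the numbers pair samples, and deviations of same-numbered libraries had r of -0.26 to 0.01. Leaving out a library can leave a group with 1 sample, which is then assumed to vary like the others. Depth limits aakg-3 (29 to 152 reads) and aak-1 (83 to 683 reads).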
